A study of Homo sapiens with 2 samples.

Results

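Transcripts of 10 enzymes of pyrimidine and deoxynucleotide synthesis were read in single A549 cells: DHODH, CAD, UMPS, CTPS1, UCK2, TYMS, DTYMK, TK1, RRM1 and RRM2. They were chosen by name, out of 33538 genes listed, and all 10 were found by their symbols. A549 is a line of human lung adenocarcinoma cells, here with a Cas9 nuclease under an inducible promoter. All cells came from 1 pool transduced with a lentiviral library of 120 gRNAs (multiplicity of infection, MOI, 0.3) that was selected with puromycin for 10 to 14 days, induced for 2 days and grown for 5 more days. The inducer was doxycycline by the growth protocol, whereas the design text names tamoxifen. The library held 4 gRNAs against each of 25 genes and 20 Non-Targeting gRNAs, whose cells served as control and carried the same Cas9, vector and selection. Non-Targeting gRNAs are designed to cut no gene, so target pools differ from control also by the cut itself.

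These enzymes build the pyrimidine bases of RNA and DNA. The de novo route starts with CAD, passes through DHODH in the inner mitochondrial membrane and ends at uridine monophosphate with UMPS; CTPS1 then makes CTP, while UCK2 recovers uridine and cytidine from outside. The ribonucleotide reductase of RRM1, its large subunit, and RRM2, its small subunit, makes deoxynucleotides, and TYMS, DTYMK and the salvage kinase TK1 lead to dTTP. Several of the deoxynucleotide enzymes are textbook genes of S phase, when DNA is copied, and are targets of E2F transcription factors. DHODH was also 1 of the 25 genes targeted. DHODH gRNAs cut the gene, and cut alleles can still be transcribed, so a transcript level is no measure of enzyme loss.

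TYMS, TK1, RRM1, RRM2 and DTYMK stood apart over the cell cycle, as given below, so promoters of the members were searched for elements of cell cycle genes. In TYMS, TK1, RRM1 and RRM2, but not in DTYMK, RefSeq's promoter window (GRCh38.p14, 250 bases before a start site and 50 after it) held an E2F element, searched on both strands with the spelling GCGGGAA, its variant GCGCCAA, the variant GCGCGAA and the variant GCGGCAA. No window of the other members, DTYMK included, held it, of 13 windows in all, and 13.0% of 35116 windows of all genes did. TK1, RRM2 and CTPS1 had 2 windows each, and in TK1 and RRM2 only 1 of the 2 held the element. CCAAT, the letters bound by NF-Y, was found in 7 members against 34.6% of all windows, GGGCGG in 8 against 45.0%, and TTTGAA in 2, UMPS and RRM1, against 15.2%. A member counted if any of its windows matched, so members with 2 windows had more room for a match than the shares per window. GCGGGAA can share letters with GGGCGG. A match is only a run of letters, and a window without one says nothing of the factor. The 250 bases before the start are printed 5′ to 3′ on the strand of the gene, with E2F elements and CCAAT, read in either direction, in capitals. These windows show how far each element lay from the start, a second RRM2 window shows CCAAT 3 times, and DHODH is shown as the targeted gene.
TYMS, plus strand, chr18:657403-657652: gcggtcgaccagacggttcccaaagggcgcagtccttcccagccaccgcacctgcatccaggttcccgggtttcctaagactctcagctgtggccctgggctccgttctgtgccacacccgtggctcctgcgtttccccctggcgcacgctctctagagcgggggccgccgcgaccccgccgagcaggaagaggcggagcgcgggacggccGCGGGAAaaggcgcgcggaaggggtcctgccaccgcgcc
TK1, minus strand, chr17:78187053-78187302: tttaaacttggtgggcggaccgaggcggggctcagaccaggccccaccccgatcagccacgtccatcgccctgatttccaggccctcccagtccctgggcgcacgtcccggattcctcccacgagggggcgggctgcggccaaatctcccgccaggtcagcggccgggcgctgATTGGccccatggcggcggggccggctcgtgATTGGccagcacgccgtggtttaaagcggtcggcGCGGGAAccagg
RRM1, plus strand, chr11:4094435-4094684: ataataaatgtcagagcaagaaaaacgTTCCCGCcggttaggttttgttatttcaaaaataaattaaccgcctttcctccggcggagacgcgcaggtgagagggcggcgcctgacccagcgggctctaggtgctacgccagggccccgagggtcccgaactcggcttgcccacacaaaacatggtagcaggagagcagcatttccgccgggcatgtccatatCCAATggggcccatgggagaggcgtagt
RRM2, plus strand, start further upstream, chr2:10122318-10122567: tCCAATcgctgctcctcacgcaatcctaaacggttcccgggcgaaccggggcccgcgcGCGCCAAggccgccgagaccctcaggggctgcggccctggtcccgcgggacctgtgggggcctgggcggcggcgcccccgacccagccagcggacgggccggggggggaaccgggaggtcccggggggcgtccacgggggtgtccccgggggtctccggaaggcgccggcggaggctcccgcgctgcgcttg
RRM2, plus strand, start further downstream, chr2:10122489-10122738: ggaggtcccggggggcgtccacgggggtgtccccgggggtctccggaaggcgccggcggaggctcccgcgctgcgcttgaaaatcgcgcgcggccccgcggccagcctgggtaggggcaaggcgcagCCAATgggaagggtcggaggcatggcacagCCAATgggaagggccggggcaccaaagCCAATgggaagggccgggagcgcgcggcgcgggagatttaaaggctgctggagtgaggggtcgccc
DHODH, plus strand, chr16:72008494-72008743: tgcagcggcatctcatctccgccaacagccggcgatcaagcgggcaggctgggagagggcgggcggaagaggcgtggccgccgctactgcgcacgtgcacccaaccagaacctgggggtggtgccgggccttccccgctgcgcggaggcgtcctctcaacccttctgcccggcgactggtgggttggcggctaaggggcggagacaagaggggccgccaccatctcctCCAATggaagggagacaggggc
Counted from the start site, the first letter of the E2F element lay at -39 in TYMS, -12 in TK1, -223 in RRM1 and -192 in RRM2. In the second RRM2 window, CCAAT began at -123, -93 and -66, and TK1 held the same box, on the other strand, at -77 and -46.

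By GENCODE 44 on GRCh38, 8 of the members overlapped no other protein-coding gene. TYMS (chr18:657653-673578, plus strand) shared its 3′ part with ENOSF1 (chr18:670318-712662, minus strand), and UCK2 (chr1:165827614-165911618) overlapped TMCO1 on the other strand. Whether the counting used strand was not given in the sources used here, so ENOSF1 is set beside TYMS where TYMS differed. DHODH lay at chr16:72008588-72027664, with the 4 DHODH gRNAs named in the order gRNA3, gRNA4, gRNA2 and gRNA1 along the gene's strand, the last 12410 bases from the first. Their coordinates are of an unnamed build and fall outside DHODH on GRCh38, so only order and distance are used.

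The files held 5744 cells with 210519208 transcriptome UMIs (unique molecular identifiers, 1 per captured transcript) and a median of 34625 per cell, from 513 to 161719. A gRNA was called above 3 UMIs, which gave 3189 cells with exactly 1 gRNA, 2269 with none and 286 with several, the last left out of all pools. The paper of this series reports that Cell Ranger, which made these counts, takes a gRNA with 1 mismatch as intact. It also reports that mutant gRNAs appeared dysfunctional. Some cells of each target pool may therefore carry an inactive gRNA, which these counts cannot show. Of the cells, 99.2% held at least 3 of 10 epithelial and A549 markers, 1 cell held 3 fibroblast markers, and none held 3 immune or endothelial ones; the lung markers SFTPC and NKX2-1 had a UMI in 0.505% and 0.157% of cells. There is 1 culture and 1 library of each kind, so no p-value is given. Values are summed UMIs of a gene per 1000000 UMIs of the pool (CPM), with exact 95% intervals that cover counting error only, and the spread over single Non-Targeting gRNAs is given beside them. CPM of 3′ tags was not divided by length and is not compared between genes.

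All 10 members were measured in the 696 Non-Targeting cells (25154674 UMIs). In the de novo genes this came to 758 UMIs or 30.1 CPM for CAD, 386 or 15.3 for DHODH and 1141 or 45.4 for UMPS. CTPS1 had 1424 UMIs or 56.6 CPM and UCK2 842 or 33.5. Of the deoxynucleotide genes, TYMS had 3420 UMIs or 136 CPM, DTYMK 4378 or 174, TK1 3787 or 151, RRM1 1446 or 57.5 and RRM2 1205 or 47.9. DHODH thus rested on the fewest UMIs of the 10, which sets the width of its intervals below.

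Co-expression with PCNA, the DNA polymerase clamp and an S phase gene, divided the members. The 5317 cells with at least 10000 UMIs were ranked by PCNA CPM into 5 equal bins. RRM2 was 10.1 times as high in the highest bin as in the lowest (9.09 to 11.3), TK1 6.10 times (5.78 to 6.45), TYMS 4.22 times (4.01 to 4.44) and RRM1 4.10 times (3.82 to 4.41). DTYMK followed at 2.50 times (2.40 to 2.60). The de novo and ribonucleotide genes had smaller ratios, of 1.97 for UMPS, 1.71 for UCK2, 1.58 for CAD, 1.47 for CTPS1 and 1.44 for DHODH.

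A ratio of at least 1.5 was taken as S phase-linked and one between 0.8 and its inverse as constant. By this rule 8 members were S phase-linked, CTPS1 and DHODH were intermediate and none was constant, where 10.9% of the 15060 genes measured were S phase-linked and 56% lay in the constant range. With bins by a list of 30 S phase genes all 10 passed, where 14.9% of 15120 genes did. DHODH was at 1.75 (1.56 to 1.97) and CTPS1 at 1.74 (1.63 to 1.85), so the class of these 2 genes turned with the ranking. After adding 1 CPM, 9 passed in Non-Targeting cells alone, with CTPS1 at 1.61 and DHODH at 1.2, in the constant range, and 9 with cells of all depths, with DHODH at 1.54. The line ran between CAD (1.45 to 1.72) and CTPS1 (1.38 to 1.56), whose intervals overlapped and both held 1.5. At a ratio of at least 2, which 5.15% of genes reached, the 5 deoxynucleotide genes remained and no other member did. That cut was chosen after the values were seen, and the interval of UMPS (1.83 to 2.11) held 2. With bins by the S phase list, UMPS at 2.28 and UCK2 at 2.04 passed 2 as well.

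**Figure D1:**
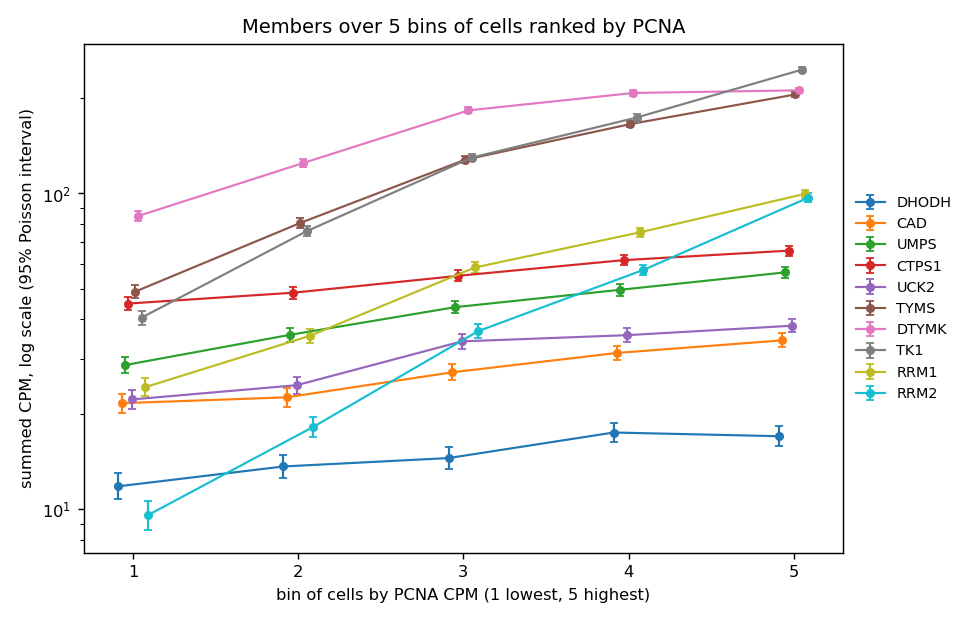
Summed CPM of each member on a log scale over 5 bins of cells ranked by PCNA CPM, with 95% Poisson intervals. RRM2 goes from 9.58 to 97.1 CPM and TK1 from 40.4 to 247, while DHODH stays between 11.8 and 17.5 and CTPS1 between 44.8 and 65.9.

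Bin by bin, RRM2 was at 9.58, 18.2, 36.7, 57.3 and 97.1 CPM, so that each bin lay above the one before. TK1 was at 40.4, 75.9, 130, 174 and 247 CPM, TYMS at 48.8, 80.6, 128, 166 and 206, and RRM1 at 24.3, 35.4, 58.3, 75.3 and 99.8. All 3 were higher in each bin than in the one below it. DTYMK, which makes dTDP from dTMP, was at 84.9, 125, 183, 208 and 212 CPM, and its last 2 bins had overlapping intervals. UMPS was at 28.6, 35.7, 43.6, 49.5 and 56.3 CPM, CTPS1 at 44.8, 48.5, 54.9, 61.5 and 65.9 and UCK2 at 22.3, 24.7, 34.0, 35.6 and 38.1. CAD was at 21.7, 22.6, 27.1, 31.3 and 34.3 CPM. DHODH was at 11.8, 13.7, 14.5, 17.5 and 17.0 CPM, on 439 to 793 UMIs per bin, and its highest bin was the fourth.

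PCNA bins did not separate S phase alone. Median depth went from 30187.5 UMIs per cell in the lowest bin to 40632 in the highest, and MKI67, a gene of all cycling cells, from 35.5 to 240 CPM. Cells thinned to 10000 UMIs kept the 5 deoxynucleotide genes at the top, with ratios, after adding 1 CPM, of 4.06 for RRM2, 2.99 for TK1, 2.72 for RRM1, 2.54 for TYMS and 1.77 for DTYMK, but 6 members passed 1.5 in place of 8. In the upper 3 bins by a list of 30 G2/M genes, a restriction chosen after the values were seen, 4 members passed 1.5, again after adding 1 CPM: RRM2 at 2.76, RRM1 at 1.86, TK1 at 1.84 and TYMS at 1.79. There DTYMK was at 1.04 (1.00 to 1.08) and DHODH at 1.16 (1.01 to 1.35).

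Ranking the cells by the G2/M list, a sum of 30 genes, gave larger ratios for the deoxynucleotide genes than PCNA, a single gene, did. RRM2 was 36.1 times as high in the highest bin as in the lowest (29.3 to 45.1), TK1 13.7 times, DTYMK 5.49, TYMS 5.28 and RRM1 5.25. UCK2 was at 1.92, UMPS 1.80, CAD 1.78, CTPS1 1.49 and DHODH 1.36. Over the S phase list, also of 30 genes, RRM2 was at 26.7, TK1 at 12.1, RRM1 at 6.02, TYMS at 5.09 and DTYMK at 3.42. RRM1 was thus higher there than over the G2/M list, and RRM2, TK1, TYMS and DTYMK were lower. Only for DTYMK were the intervals apart (3.26 to 3.58 against 5.23 to 5.76), and for the others they overlapped. The same 5 genes led over each ranking, and 14.8% of genes reached 1.5 over the G2/M bins.

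Crossing both rankings set apart cells with only one of the signals. The upper 2 bins were called high, which gave 2395 cells low in both, 796 with high PCNA and a low G2/M list, 1330 high in both and 796 with low PCNA and a high G2/M list. Against cells low in both, cells with high PCNA alone had 4.23 times the RRM2, 3.0 times the TK1, 2.30 times the TYMS, 2.27 times the RRM1 and 1.63 times the DTYMK. Cells with a high G2/M list alone had 10.1 times the RRM2, 4.29 times the TK1, 3.21 times the TYMS, 3.07 times the DTYMK and 3.02 times the RRM1. RRM2, TK1, TYMS and RRM1 were highest in cells high in both, at 16.0, 5.60, 3.94 and 3.92 times, whereas DTYMK was highest at a high G2/M list with low PCNA, at 261 CPM against 244.

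**Figure D2:**
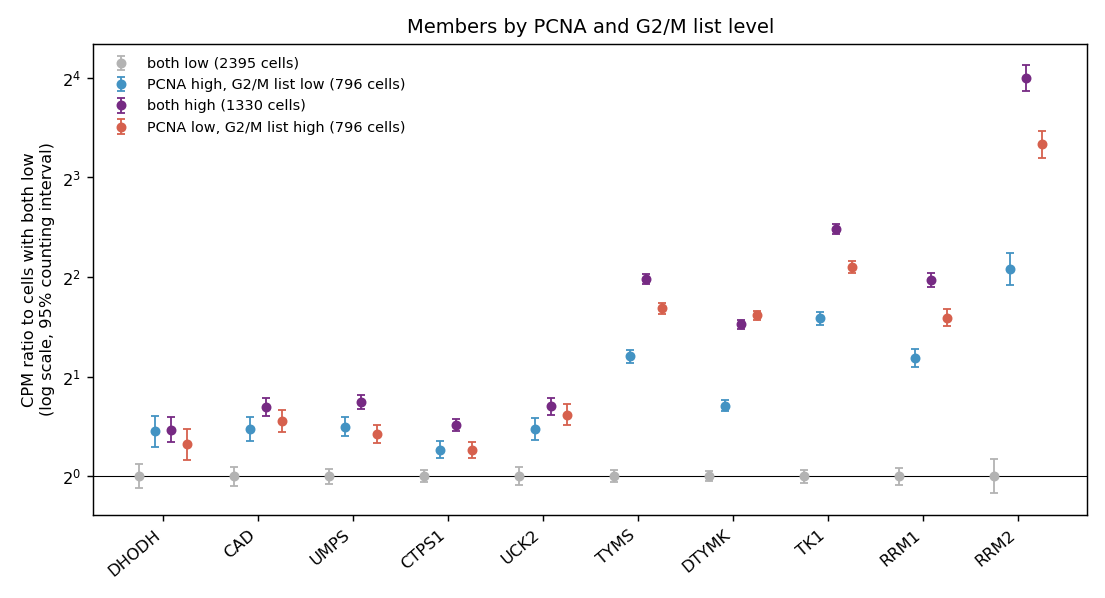
CPM of each member as a ratio to cells low in both PCNA and the G2/M list, on a log scale with 95% counting intervals, in 4 ranges of cells. The 5 deoxynucleotide genes reach 2.87 to 16.0 in cells high in both, and DHODH, CAD, UMPS, CTPS1 and UCK2 stay between 1.2 and 1.68 in all 3 ranges with a high signal.

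Set directly against each other, cells with PCNA alone had 0.420 times (0.387 to 0.457) the RRM2 of cells with the G2/M list alone, 0.533 times the DTYMK and 0.699 to 0.753 times the TK1, TYMS and RRM1. In contrast, DHODH was at 1.09 (0.965 to 1.24), CAD at 0.948 (0.865 to 1.04), UMPS at 1.05 (0.978 to 1.14) and CTPS1 at 1.00 (0.938 to 1.07), intervals that all held 1. The de novo genes and CTPS1 were thus level between these ranges to within those intervals, and UCK2 was slightly lower with PCNA alone, at 0.904 (0.829 to 0.985). PCNA is 1 gene and the G2/M list sums 30, so these ratios do not place a member in S phase or in G2.

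Cell by cell, correlations with PCNA after thinning to 10000 UMIs had the same 5 genes first. Over 5317 cells Pearson's r was 0.375 for TK1, 0.325 for TYMS, 0.291 for RRM2, 0.255 for RRM1 and 0.228 for DTYMK, and between 0.0513 for DHODH and 0.0978 for UMPS in the other members. These are descriptions in sparse counts of 1 library, and the low values are no finding. TYMS and TK1 were at 0.404 with each other. On log-normalized values, which keep the depth of each cell as a shared factor, the genes most like each member among 4976 genes were TK1 (r = 0.676), CKS1B (0.670) and H2AFZ (0.656) for TYMS, and PCLAF (0.756), H2AFZ (0.734) and TUBA1B (0.726) for TK1. DTYMK was most like TUBA1B (0.694), H2AFZ (0.690) and CKS1B (0.689), RRM1 like TK1 (0.550), MKI67 (0.545) and PCLAF (0.541), and RRM2 like MKI67 (0.653), AURKB (0.619) and TK1 (0.617). No gene reached 0.3 for DHODH, CAD, UMPS or UCK2, and the highest for DHODH was C1QBP at 0.197.

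Cells with DHODH gRNAs were next compared with Non-Targeting cells, to see whether other enzymes of the route differed where DHODH was targeted. In these 44 cells (1315313 UMIs), TK1, RRM1 and RRM2 were lower, DHODH itself was lower on few UMIs, and the de novo genes CAD and UMPS were near control. Past a log2 ratio of 0.5, with 1 CPM added and at least 10 UMIs expected at the control level, 4 of 10 members were lower and 0 higher; with 10 CPM added 2 were lower, as DHODH (-0.46) and RRM1 (-0.45) no longer passed. Over all 8234 genes measured in this pool, 7.24% were lower and 4.7% higher by the same rule. Among genes with at least 50 UMIs expected, which leaves TK1, RRM1 and RRM2 past the fold, 2.9% were lower and 0.968% higher. The median log2 ratio of the 10 members was -0.21, beside -0.00 over all genes and -0.37 to 0.30 for the same median in single Non-Targeting gRNAs.

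DHODH had 11 UMIs in these cells where 20.2 were expected, at 8.36 CPM against 15.3, or 54.5% of control (27.0 to 98.6%). Its log2 ratio of -0.80 lay within those of the 15 control gRNAs with 10 or more cells, with a lowest value of -1.07, a median of -0.01 and a highest of 0.48. One of these control gRNAs was thus lower than the targeted cells, and the depth does not set DHODH apart from them.

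CAD, which makes dihydroorotate, had 36 UMIs and 90.8% of control (63.1 to 127%). UMPS, which follows DHODH, had 62 UMIs and 104% (79.1 to 134%), CTPS1 69 UMIs and 92.7% (71.7 to 118%) and UCK2 40 UMIs and 90.9% (64.4 to 125%). Summed, CAD, UMPS and CTPS1 were at 96.1% of control (81.8 to 112%). All 4 genes lay inside their Non-Targeting ranges, and differences inside these intervals were not detectable at this depth.

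TK1, the cytosolic thymidine kinase, had 122 UMIs where 198 were expected, at 92.8 CPM against 151, or 61.6% of control (51.0 to 73.8%). Its log2 ratio of -0.69 was below that of each control gRNA, as these lay between -0.31 and 0.45. RRM1 had 52 UMIs where 75.6 were expected, or 68.8% (51.1 to 90.7%), and its -0.53 was also below all 15, of which the lowest was at -0.42. How many of all genes lay below their own 15 control gRNAs is not given here. RRM1 lay near the fold and missed it, at -0.49, without the largest Non-Targeting gRNA (134 cells). RRM2 had 37 UMIs where 63.0 were expected, or 58.7% (41.1 to 81.4%); its -0.75 lay within a wide range of -1.0 to 0.88, with 2 control gRNAs lower. TYMS had 151 UMIs and 84.4% (71.3 to 99.4%), with ENOSF1 at 105% (74.0 to 145%), and DTYMK 203 UMIs and 88.7% (76.7 to 102%). The sum of TYMS, TK1, RRM1 and RRM2 came to 70.2% of control (63.1 to 78.0%).

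**Figure D3:**
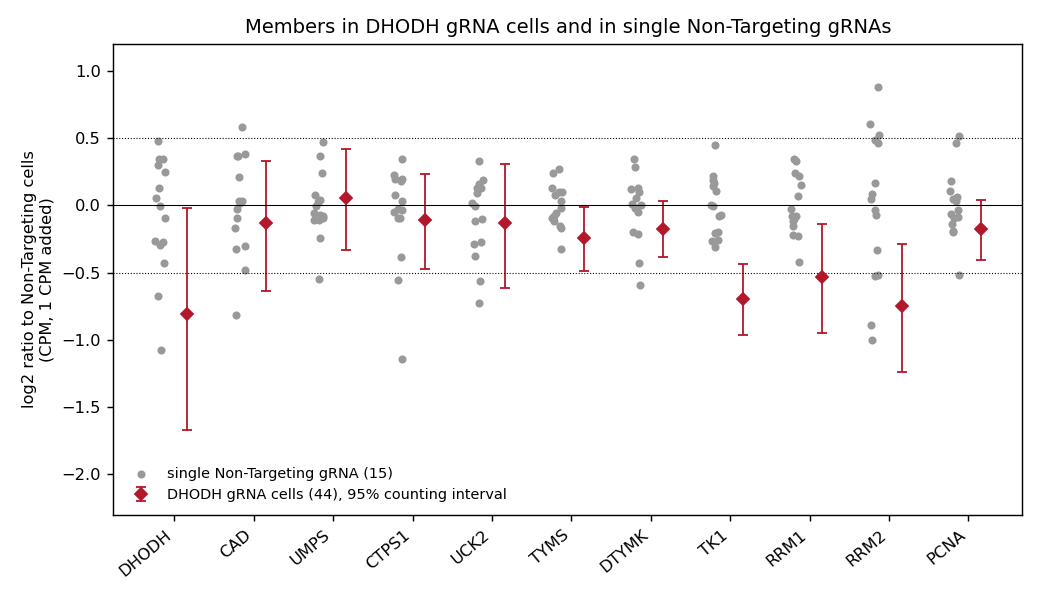
Log2 ratio to Non-Targeting cells of each member and of PCNA, in 44 DHODH gRNA cells (diamonds, 95% counting interval) and in 15 single Non-Targeting gRNAs against the other Non-Targeting cells (gray points); dotted lines mark 0.5 in either direction. TK1 at -0.69 and RRM1 at -0.53 lie below all 15 control points, whereas DHODH at -0.80 and RRM2 at -0.75 do not.

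The direction of RRM2 turned with the way cells were combined. A mean of CPM over cells, which gives a shallow cell the weight of a deep one, was 81.3 in DHODH gRNA cells against 42.3 in control cells. One cell of 2028 UMIs held 3 RRM2 UMIs, which is 1479 CPM; without it the mean was 48.8. Among cells with at least 10000 UMIs, which leaves 37 of the 44, the mean was 20.7 CPM against 41.6, and the summed log2 ratio -0.97.

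By gRNA the counts were small. DHODH_gRNA1 had 7 cells, DHODH_gRNA2 and DHODH_gRNA3 14 each and DHODH_gRNA4 9. DHODH itself had 5 UMIs with gRNA2 (85.1% of control), 3 with gRNA3 (36.1%) and 3 with gRNA4 (74.4%). It had 0 with gRNA1 where 1.96 were expected, and 3 UMIs, the limit a count of 0 allows, would be 23.4 CPM there, while the exact interval used for the other values reached 189% of control. All of these intervals held 100%, so no gRNA by itself showed a lower DHODH.

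TK1 was below control with each of the 4 gRNAs, at 41.5% with gRNA1 (8 UMIs), 88.5% with gRNA2 (51), 52.7% with gRNA3 (43) and 50.5% with gRNA4 (20), and only the interval of gRNA2 (65.8 to 117%) held 100%. RRM1 was at 13.6% with gRNA1, on 1 UMI, 95.5% with gRNA2, 77.1% with gRNA3 and 39.7% with gRNA4. RRM2 was at 114% with gRNA1 (45.8 to 236%), 60.0% with gRNA2, 34.7% with gRNA3 and 79.4% with gRNA4. Without gRNA2 the log2 ratio of TK1 was -0.97 and without gRNA3 -0.56, and in every case it stayed past the fold. RRM1 did not stay past it without gRNA1 (-0.41) or gRNA4 (-0.39), nor RRM2 without gRNA3 (-0.39).

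Cell cycle genes moved with these values. In DHODH gRNA cells the summed S phase list was at a log2 ratio of -0.52, with 13 of its 27 measured genes lower past the fold and 0 higher. The G2/M list was at -0.73, with 26 of 30 lower, beside 7.24% lower and 4.7% higher over all genes. All 30 genes of each list rose over the PCNA bins, so these are not counts of separate changes. Single control gRNAs reached -2.01 for PLK1 and -1.82 for AURKA, against -1.29 and -1.12 here. UBE2C (-1.24) and HMMR (-0.98) lay below all 15. Of the S phase list, GINS2, FEN1 and RFC2 lay below all 15 and CDT1 did not. The spread of the list sums over control gRNAs is not given here. PCNA was at -0.18 with 177 UMIs. Median depth was 28110 UMIs per cell against 33581.5. Within the lower 3 PCNA bins (25 cells) TK1 was at -0.81, RRM1 at -0.68 and RRM2 at -1.84, on 5 UMIs. Within the upper 2 bins (12 cells), set after seeing the data, they were at -0.43, -0.27 and -0.48. All 3 were below control on both sides. PCNA bins do not fix the G2/M level of a cell, so this split cannot separate out the part of the cell cycle. That part was not tested.

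Neighboring routes were read from fixed lists. Of 25 genes of pyrimidine salvage, interconversion and breakdown, 23 were measured in DHODH gRNA cells, 2 were higher and 1 lower past the fold, with a median of -0.08. Over all genes in this pool 4.7% were higher and 7.24% lower. CDA, the cytidine deaminase, was at 133 CPM against 80.1 (175 UMIs, log2 ratio 0.72), within the control gRNAs, of which 13 of 15 were lower. DCTPP1, which clears dCTP, was at -0.40 and DUT, which hydrolyzes dUTP, at -0.28, both below all 15 control gRNAs though short of the fold, and NME4, a nucleoside diphosphate kinase, was at -0.18. In the folate cycle that feeds TYMS, MTHFD1 was at -0.37 and SHMT2 at -0.13. Of 16 purine synthesis genes none passed the fold. Furthest from 0 among those with at least 50 UMIs expected were HPRT1 (-0.36), IMPDH2 (-0.34), PAICS (-0.19) and ATIC (-0.18). HPRT1 and, by a narrow margin, ATIC also lay below all 15 control gRNAs, whereas IMPDH2 and PAICS did not. A place below all control gRNAs was thus not particular to the pyrimidine list.

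Over the PCNA bins the same lists split. In the salvage list 5 of 25 genes were at 1.5 or above, as were 10.9% of all genes, and 1 was at 1/1.5 or below, as were 10.4%. DCK, which phosphorylates deoxycytidine, was at 3.40 times, DUT at 2.73, DCTPP1 at 2.15 and CDA at 0.583. In the folate list SHMT1 was at 2.16 times, MTHFD1 at 2.11 and MTHFD2 at 2.07. In the purine list 7 of 16 reached 1.5, beside the same 10.9%, led by GMPS at 2.13, PAICS at 2.04, PPAT at 1.93 and HPRT1 at 1.79, all below RRM2, TK1, TYMS, RRM1 and DTYMK.

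Across all 25 target pools, which share the control cells, members were more often lower than higher. Of 250 pairs of a member and a pool, all measured, 17 (6.8%) were lower past the fold and 0 higher (9 lower with 10 CPM added), where over all 258403 pairs of a gene and a pool 4.01% were lower and 1.92% higher. Besides the 4 in DHODH gRNA cells, RPL18 cells (46 cells, 9.13% of genes lower) had 4: DHODH at -0.74, TK1 at -0.67, UMPS at -0.52 and TYMS at -0.51. RPL18 is a ribosomal protein. DNMT3B cells (35; 9.27% of genes lower) had CAD at -0.75, DHODH at -0.68 on 10 UMIs and TYMS at -0.50, and TRMT112 cells (27; 9.06%) had RRM2 at -0.63, DTYMK at -0.61 and TYMS at -0.56. RRM2 was at -0.88 in SUV39H1 cells (79; 6.41%) and -0.70 in MVD cells (69; 5.09%), and CAD at -0.51 in HELLS cells (52; 5.41%).

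**Figure D4:**
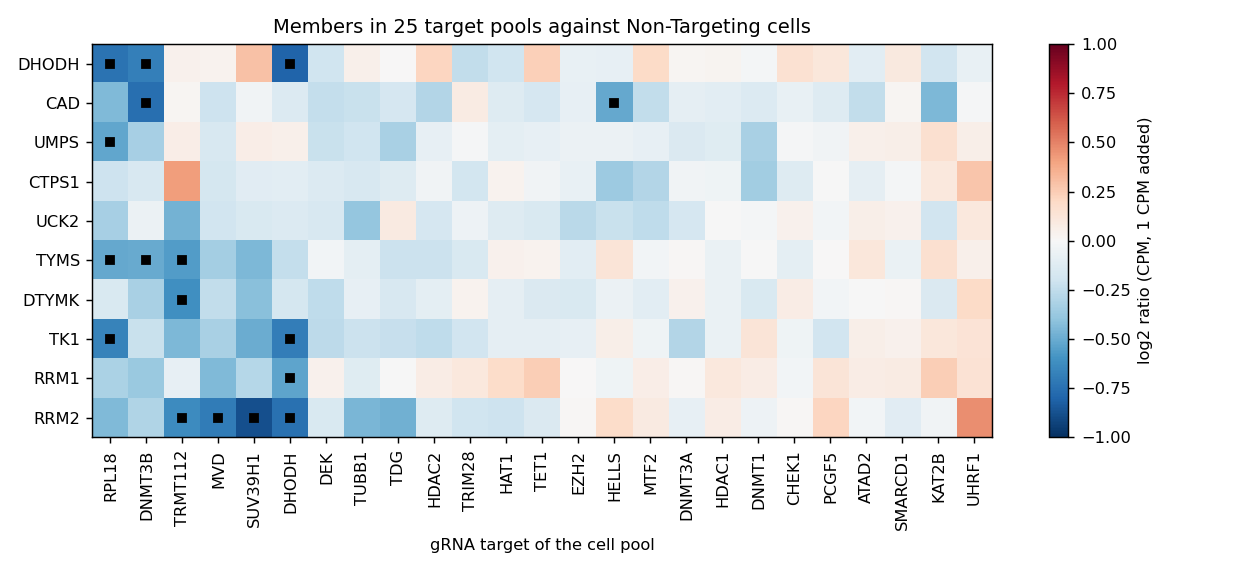
Log2 ratio of each member (rows) in 25 target pools (columns, ordered by the median of the 10 members) against Non-Targeting cells, as color from -1 to 1; black squares mark ratios beyond 0.5. The 17 marked pairs are all lower and fall in 7 pools, with 4 each in RPL18 and DHODH cells.

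Several of these pools, though not HELLS cells, also differed in cell cycle genes. The G2/M list was at a log2 ratio of -0.76 in SUV39H1, -0.68 in DNMT3B, -0.61 in TRMT112 and -0.48 in RPL18 cells. It was at -0.13 in both MVD and HELLS cells, whose S phase lists were at -0.37 and 0.01. The S phase list was lowest in RPL18 cells, at -0.56. Pools without a marked pair differed too, with the G2/M list at -0.39 in TUBB1, -0.29 in DNMT3A and 0.24 in TRIM28 cells. The part of these lists in the members' values was not tested. In TUBB1 cells (93) the sum of TYMS, TK1, RRM1 and RRM2 was at 87.7% of control (82.6 to 92.9%). In UHRF1 cells (65) it was at 111% (105 to 119%). Neither pool had a member past the fold. The part of the cut itself was not tested either. Below all 15 single Non-Targeting gRNAs, TK1 lay in DHODH, MVD, RPL18, SUV39H1 and TRMT112 cells, TYMS in DNMT3B, MVD, RPL18, SUV39H1 and TRMT112 cells, RRM1 in DHODH and MVD cells, and DTYMK in TRMT112 cells. CTPS1 was above that range in TRMT112 cells, at 0.42, the only such case. No pool lay below the range for DHODH, CAD, UMPS, CTPS1, UCK2 or RRM2. The share of all genes below their own range is not given here, so these cases are not read as a trait of the members. Control gRNAs with 13 to 134 cells overlap the pools in size, so the ranges are a description of spread at that depth.

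By member, DHODH ran from 8.36 CPM in its own pool to 19.0 in SUV39H1 cells, with a median log2 ratio of 0.01 over the 25 pools, 12 below control and 13 above. CAD was below control in 22 of 25 pools (median -0.14), CTPS1 in 21, and UCK2 and DTYMK in 20. The whole interval lay below control in 6 pools for CAD, 3 for CTPS1, 3 for UCK2 and 12 for DTYMK. It lay above control in 2 for CTPS1 and 1 for DTYMK. All pools share the control cells, so counts of pools below control are not of separate observations. The same counts over all genes are not given here. RRM1 was below in 10, with a median of 0.04. RRM2 had the widest range of the 10 on the log2 scale, from 25.6 CPM in SUV39H1 to 66.7 in UHRF1 cells (-0.88 to 0.47), around 47.9 in control cells; UHRF1 is a factor of DNA methylation upkeep. TK1, at 92.8 to 166 CPM, and TYMS, at 91.8 to 152, were lower than control in 19 and 17 pools.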

How the data were processed

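The authors deposited UMI counts per gene and per gRNA, made by Cell Ranger 3.1.0 (file header) on GRCh38; the submitters' processing notes also name R 4.2.0 and Seurat 4.1.0. The counts are raw whole numbers from a 10x 3′ v3.1 transcriptome library and a gRNA library of the same cells. The members and lists were chosen with earlier results of these data known.

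All barcodes were kept. Cells with exactly 1 gRNA above 3 UMIs were pooled by target, cells with several gRNAs were left out as possible doublets, and no doublet caller was run. Summed UMIs were expressed as CPM, and pools were set against Non-Targeting cells by the log2 ratio after adding 1 CPM, with exact Poisson or conditional binomial 95% intervals. PCNA and G2/M bins used cells with at least 10000 UMIs. Named genes were all members, PCNA, ENOSF1, the 3 most correlated genes per S phase-linked member and DHODH (r of at least 0.3, mean of at least 20 CPM), and, per pathway list, the 4 genes furthest from 0 with at least 50 UMIs expected; some folate list results are not reported here. Alternatives were other gRNA calls, depth minimums, pseudocounts, bins and omitted gRNAs. Steps were tested on simulated data, with Python 3.11.15, NumPy 2.4.6, SciPy 1.17.1, pandas 2.3.3, scikit-learn 1.9.0 and matplotlib 3.10.9.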

Additional observations from a re-analysis of the deposited data

How the results depend on the processing

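Over 263 combinations of a result and an alternative, 1 went from past the fold on one side to past it on the other. The log2 ratio of RRM2 in DHODH gRNA cells was 0.93 as a mean over cells in place of -0.75. Ratios near 0 in these cells also changed sign. Without gRNA3, UMPS was at -0.17 in place of 0.05, CAD at 0.04 in place of -0.13 and CTPS1 at 0.07 in place of -0.11. UCK2 was at 0.19 as a mean over cells in place of -0.13. With 10 CPM added, 2 members in place of 4 were past the fold in DHODH gRNA cells and 9 member-pool pairs in place of 17, since that lowers the ratio of genes at a low CPM. With the member median over PCNA bins at 1.13 (log2), it was 0.95 with 3 bins, 0.72 with thinned cells, 1.46 with bins by the S phase list, 1.05 in cells without a gRNA, 1.00 with 10 CPM added and 0.46 in the upper 3 G2/M bins. S phase-linked members numbered 4 in the upper 3 G2/M bins and 5 at a ratio of at least 2, in place of 8, both settings chosen after seeing the data; under the other settings they numbered 6 to 10, with 10 by the S phase list. Without one DHODH gRNA at a time, DHODH ranged from -1.14 to -0.53, the member median from -0.37 to -0.21, and 3 to 4 members were past the fold. Above 10 gRNA UMIs, 42 DHODH gRNA cells remained and 3 members passed, RRM1 being at -0.49, as it was without the largest Non-Targeting gRNA, and with mixture model calls it was at -0.48. No paired analysis was possible because all cells came from 1 pool and the labels give no shared replicate numbers. Depth was limited in small pools: in 44 DHODH gRNA cells, 11 DHODH UMIs leave 27.0 to 98.6% of control open.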
